A study of Mus musculus with 12 samples.

Results

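The proteasome genes of mouse were followed across 4 groups of cells. Members were all genes in the count files whose symbol begins with Psma, Psmb, Psmc, Psmd, Psme, Psmf or Psmg followed by a number. The rule found 48 of the 23420 listed genes. They comprise 14 subunits of the standard 20S core, 17 subunits of the 19S particle, 7 assembly factors, 3 other activators or inhibitors (Psme3, Psme4 and Psmf1), 5 genes of the immunoproteasome and PA28 (Psmb8, Psmb9, Psmb10, Psme1 and Psme2) and 2 core subunits known for expression in a restricted tissue (Psma8 in testis and Psmb11 in thymus). All but Psmb11 passed the filter on low counts, so 47 were tested.

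The proteasome is the barrel-shaped protease that degrades proteins marked with ubiquitin. Alpha rings gate the barrel of the 20S core and beta rings hold its catalytic subunits, Psmb5 (chymotrypsin-like), Psmb6 (caspase-like) and Psmb7 (trypsin-like). The 19S particle binds, unfolds and feeds in ubiquitinated substrates through a ring of ATPases (Psmc genes) and a set of non-ATPase subunits (Psmd genes). Interferon-gamma induces Psmb8, Psmb9 and Psmb10, which replace the standard catalytic subunits in the immunoproteasome, and Psme1 and Psme2, which form the PA28 cap. Pluripotent stem cells are known for high proteasome activity.

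Embryonic fibroblasts of mouse (MEF) were converted into iPSC, that is, induced pluripotent stem cells, and 3 RNA libraries were made for each of 4 groups: MEF, Stage1 (day 6), Stage2 (4 further days) and established iPSC. Per the series text, every group except MEF was sorted for a green fluorescent reporter of Oct4 (Oct4-GFP), and all libraries carried the strain label of a mixed C57BL/6 and 129 background. Ages, the reprogramming factors and their delivery are not given in the sources used here, nor whether replicates came from separate animals or cultures, so p-values measure only the spread between these libraries. The title and the stage characteristic of a library named different groups in 12 of 12 libraries: those titled Stage1, Stage2, iPSC and MEF were described as MEF, Stage1, Stage2 and iPSC. Groups were taken from the titles, and every direction below rests on that choice.

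The 8 fibroblast markers summed to 24770 to 29970 counts per 1e+06 gene counts (CPM, scaled for library composition by TMM) in the libraries titled MEF and to at most 179.7 CPM in the other 9, while the 8 pluripotency markers summed to 4.58 to 6.14 CPM and to at least 2657 CPM. These markers set the MEF titles apart. They go against the characteristics, which describe the libraries titled MEF as iPSC and those titled Stage1 as MEF. The markers do not settle the order of the other 3 titles. Reads counted on genes ranged from 8916223 to 19011944 per library. Reads not counted on a gene are called reads outside genes here. They cover HTSeq's summary lines for no gene, ambiguous, low quality, not aligned and not uniquely aligned, and were not split by kind. These reads took 9.90% ± 0.323 (SD, n = 3) of MEF reads, while Stage1 had 43.5% ± 4.06, Stage2 had 50.4% ± 3.10 and iPSC had 39.5% ± 4.81. Comparisons with MEF thus compare libraries of different make-up. In these bulk libraries, fewer cells of a type and less RNA per cell cannot be told apart.

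RefSeq promoter windows (GRCm38.p6, 250 bases before to 50 after the gene start) were matched for 40 of the 48 members. Both strands were searched for TGACNNNGC (antioxidant response element core, the type of site bound by Nfe2l1 and Nfe2l2), the core of the interferon-stimulated element, TTCNNNGAA (gamma-activated site) and CCAAT (NF-Y box). The upstream bases of 4 members that were all lower at Stage2 than at Stage1 (below) are shown because they hold these motifs before the start. The 4 did not move together in the comparisons with MEF. Matches are in capitals, and GENCODE M21 places no exon of a gene listed in the count files in these stretches. Exons of other genes were not checked.

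Psmb6, chr11:70525107-70525356, plus strand, with TGACGGAGC at position -9: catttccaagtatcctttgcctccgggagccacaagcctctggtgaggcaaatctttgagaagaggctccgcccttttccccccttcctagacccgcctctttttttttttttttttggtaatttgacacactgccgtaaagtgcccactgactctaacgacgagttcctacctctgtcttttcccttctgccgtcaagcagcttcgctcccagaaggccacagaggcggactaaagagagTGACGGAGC

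Psmd9, chr5:123227940-123228189, plus strand, with the interferon-stimulated element core (GAAAAAGAAA) at -159 and TGACCCCGC at -31: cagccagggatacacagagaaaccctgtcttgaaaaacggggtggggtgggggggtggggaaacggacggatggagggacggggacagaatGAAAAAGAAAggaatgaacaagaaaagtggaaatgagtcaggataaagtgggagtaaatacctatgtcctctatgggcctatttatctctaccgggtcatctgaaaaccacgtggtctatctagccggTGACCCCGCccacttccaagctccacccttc

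Psmd4, chr3:95042615-95042864, minus strand, with an NF-Y box on the other strand at -95 and the interferon-stimulated element core, also on the other strand (TTTCCATTTC), at -80: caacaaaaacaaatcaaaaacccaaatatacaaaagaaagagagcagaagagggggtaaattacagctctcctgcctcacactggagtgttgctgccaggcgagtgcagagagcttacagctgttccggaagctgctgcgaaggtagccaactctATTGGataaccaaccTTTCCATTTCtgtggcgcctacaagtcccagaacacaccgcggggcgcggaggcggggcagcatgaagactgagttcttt

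Psmg1, chr16:95990961-95991210, minus strand, with TTCTCTGAA at -243: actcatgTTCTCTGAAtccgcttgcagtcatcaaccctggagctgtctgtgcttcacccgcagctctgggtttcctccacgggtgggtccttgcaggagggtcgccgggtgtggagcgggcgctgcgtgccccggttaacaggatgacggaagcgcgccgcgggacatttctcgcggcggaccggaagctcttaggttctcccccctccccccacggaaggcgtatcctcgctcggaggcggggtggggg

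Windows with TGACNNNGC made up 14.0% of the 43 member windows (some genes have more than 1 start) and 12.4% of all 32851 promoter windows. Its 6 members were Psmb5, Psmb6, Psmc6, Psmd12, Psmd9 and Psme4. The interferon-stimulated element core was in 11.6% of member windows and in 3.44% of all windows, namely those of Psmb3, Psmd4, Psmd9, Psme1 and Psmg4. The TTCNNNGAA motif was in 6.98% against 8.30%, in Psmb8 (TTCCCAGAA at -97), Psmd2 and Psmg1, and the NF-Y box in 32.6% against 37.4%. These are descriptions of letters in a window, not of bound sites. No pattern searched overlapped another in the 4 stretches shown.

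The first comparison, Stage1 against MEF, addresses the step from fibroblast to the first Oct4-GFP-sorted population. Most standard proteasome subunits rose, and Psmb2, Psmb3, Psmb5 and Psmd8 fell. Genes were called at an adjusted p below 0.05 (the quasi-likelihood test of edgeR, with Benjamini-Hochberg adjustment over the 14770 tested genes). Of the 31 standard 20S and 19S subunits, 20 were higher at Stage1, 4 were lower and 7 were not called, beside 44.2% of all tested genes called higher and 36.1% called lower (80.4% in either direction). All 3 Stage1 libraries lay above all MEF libraries in 20 of the 47 tested members and below them in 7, as in 43.9% and 35.4% of all tested genes. The median log2 fold change of the 31 was 0.72, and that of all tested genes 0.27.

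The alpha ring and the ATPase ring moved mostly upward. Of the 7 alpha subunits, 5 rose and none fell, with log2 fold changes of 0.05 (Psma6, not called) to 1.23 (Psma2). Of the 6 ATPases, 5 rose and none fell, Psmc4 being the one not called at 0.07. Psmc5, an ATPase of the 19S base, lay at 73.1, 72.0 and 78.0 CPM in MEF and at 202, 218 and 220 CPM at Stage1. Its 3 Stage1 libraries were all above MEF, with a log2 fold change of 1.52 ± 0.131 (SE) and an adjusted p of 6.64e-09 by edgeR. Among the 11 non-ATPases, 8 rose, led by the lid subunit Psmd12 at 1.52, and Psmd8 alone fell.

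The beta ring split. Of its 7 subunits, Psmb1 and Psmb7 rose, Psmb2, Psmb3 and Psmb5 fell, and Psmb4 and Psmb6 were not called. The catalytic Psmb5 (chr14:54614119-54618022) lay at 34.3, 69.7 and 61.7 CPM in MEF and at 23.9, 24.8 and 19.7 CPM at Stage1, with no overlap and a log2 fold change of -1.28 ± 0.216 (SE). The catalytic Psmb7 went from 149, 167 and 115 CPM to 304, 387 and 357 CPM, a log2 fold change of 1.28 ± 0.146 (SE). Exons of Psmb7 overlap those of Nek6 on the opposite strand, and the strand setting of the counting is not given, so their reads may not be told apart. Exons of Psmb5 overlap Mir686 on the same strand. The third catalytic subunit, Psmb6, lay at 105, 169 and 129 CPM in MEF and at 120, 151 and 132 CPM at Stage1, inside the MEF range. So the 3 standard catalytic subunits took 3 different courses from MEF to Stage1.

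The largest falls among standard subunits were in the 19S lid and the beta ring. Psmd8 (chr7:29174188-29180701), a lid subunit also called Rpn12, lay at 704, 624.5 and 448 CPM in MEF and at 146, 149 and 139 CPM at Stage1. That is a log2 fold change of -2.04 ± 0.164 (SE), with an adjusted p of 2.62e-09 by edgeR. The structural beta subunit Psmb3 (chr11:97703399-97713500) went from 188, 209 and 192 CPM to 67.9, 84.2 and 58.5 CPM, a log2 fold change of -1.48 ± 0.158 (SE). Psmb2, also structural, went from 135, 165 and 92.2 CPM to 54.1, 52.0 and 56.1 CPM. None of these 3 overlapped between the groups, and in all 3 the Stage2 and iPSC libraries also stayed below every MEF library.

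**Figure D1:**
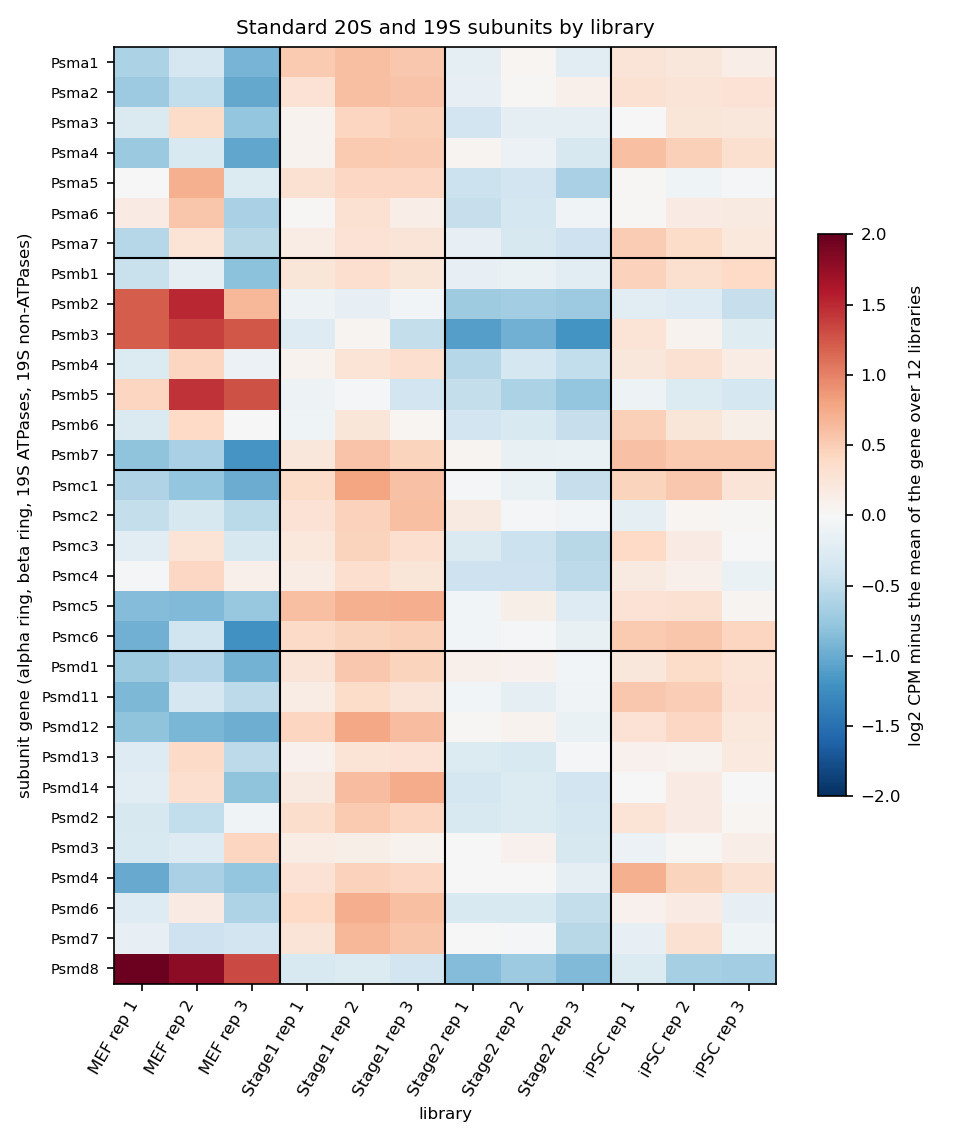
Levels of the 31 standard 20S and 19S subunits in the 12 libraries. Each cell is the log2 of TMM-scaled CPM minus the mean of that gene over the 12 libraries (colour, -2 to 2), with subunits in rows by ring or particle and libraries in columns by group. Psmb2, Psmb3, Psmb5 and Psmd8 are highest in MEF, and the Stage2 columns are paler or bluer than the Stage1 columns, with a fold change below 0 in all 31 rows.

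Scaling matters for this comparison. With totals that include the reads outside genes, an alternative chosen after seeing the data, 15 of the 47 tested members were higher and 12 lower in place of 24 and 7, and the median of all tested genes moved from 0.27 to -0.22. With that scaling 11 of the 31 standard subunits were higher and 6 lower.

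The second comparison, Stage2 against Stage1, covers the 4 further days. Nearly the whole standard proteasome was lower at Stage2. All 31 standard 20S and 19S subunits had a log2 fold change below 0, with 26 called lower and 0 called higher, beside 19.8% of all tested genes called lower and 20.6% called higher (40.4% in either direction). At an unadjusted p below 0.05 by edgeR 28 were lower and 0 higher, and DESeq2 called 22 lower and 0 higher. Their median was -0.53, against 0.02 for all tested genes. Counting all 47 tested members, 33 were lower, 2 higher (Psmb8 and Psma8) and 12 not called. In 39 of the 47, all 3 Stage2 libraries lay below all 3 Stage1 libraries and in 2 above them, as in 30.2% and 29.4% of all tested genes.

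The subunits moved by similar amounts. Log2 fold changes of the 31 ran from -0.94 (Psmd6) to -0.18 (Psmd3), with an SD across subunits of 0.18 against 0.90 from MEF to Stage1. Over all tested genes the SD was 1.09 and 3.16 in the same comparisons. All 6 ATPases fell, as did 12 of the 14 core subunits and 8 of the 11 non-ATPases. Psmb5 (-0.46, adjusted p = 0.104 by edgeR) and Psma6 (-0.44, adjusted p = 0.106) were the core subunits not called, although their Stage2 libraries all lay below Stage1.

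Psmd6, a 19S lid subunit, lay at 185, 231.5 and 212 CPM at Stage1 and at 113, 113 and 100.4 CPM at Stage2, with a log2 fold change of -0.94 ± 0.169 (SE) and an adjusted p of 0.00031 by edgeR. Psmd9, a chaperone of 19S base assembly whose upstream sequence is shown above, fell further, from 23.7, 31.9 and 32.9 CPM to 14.4, 10.8 and 13.4 CPM, a log2 fold change of -1.20 ± 0.198 (SE). Both groups of libraries were separate for both genes. Psmb3 fell again, to 38.0, 41.6 and 35.3 CPM at Stage2, and Psmb7 fell to 271, 235 and 238.5 CPM. Psmb6 (98.1, 103 and 92.6 CPM at Stage2) was called at a log2 fold change of -0.46 ± 0.162 (SE) and an adjusted p of 0.0325 by edgeR. That call is near the threshold, and it was lost in several alternatives given in the closing section.

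The number of standard subunits called lower depended on the scaling. With library totals in place of TMM, 13 of the 31 were called lower, 0 higher, 30 had a value below 0, and the median of all tested genes shifted to 0.22. Over all genes the called ones were then 70.6% higher, against 51.1% with TMM. With a correction for GC content (added after seeing the data), 17 of the 31 were called lower. Leaving out Stage2 replicate 3 gave 16 lower, and leaving out Stage1 replicate 2 gave 17.

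**Figure D2:**
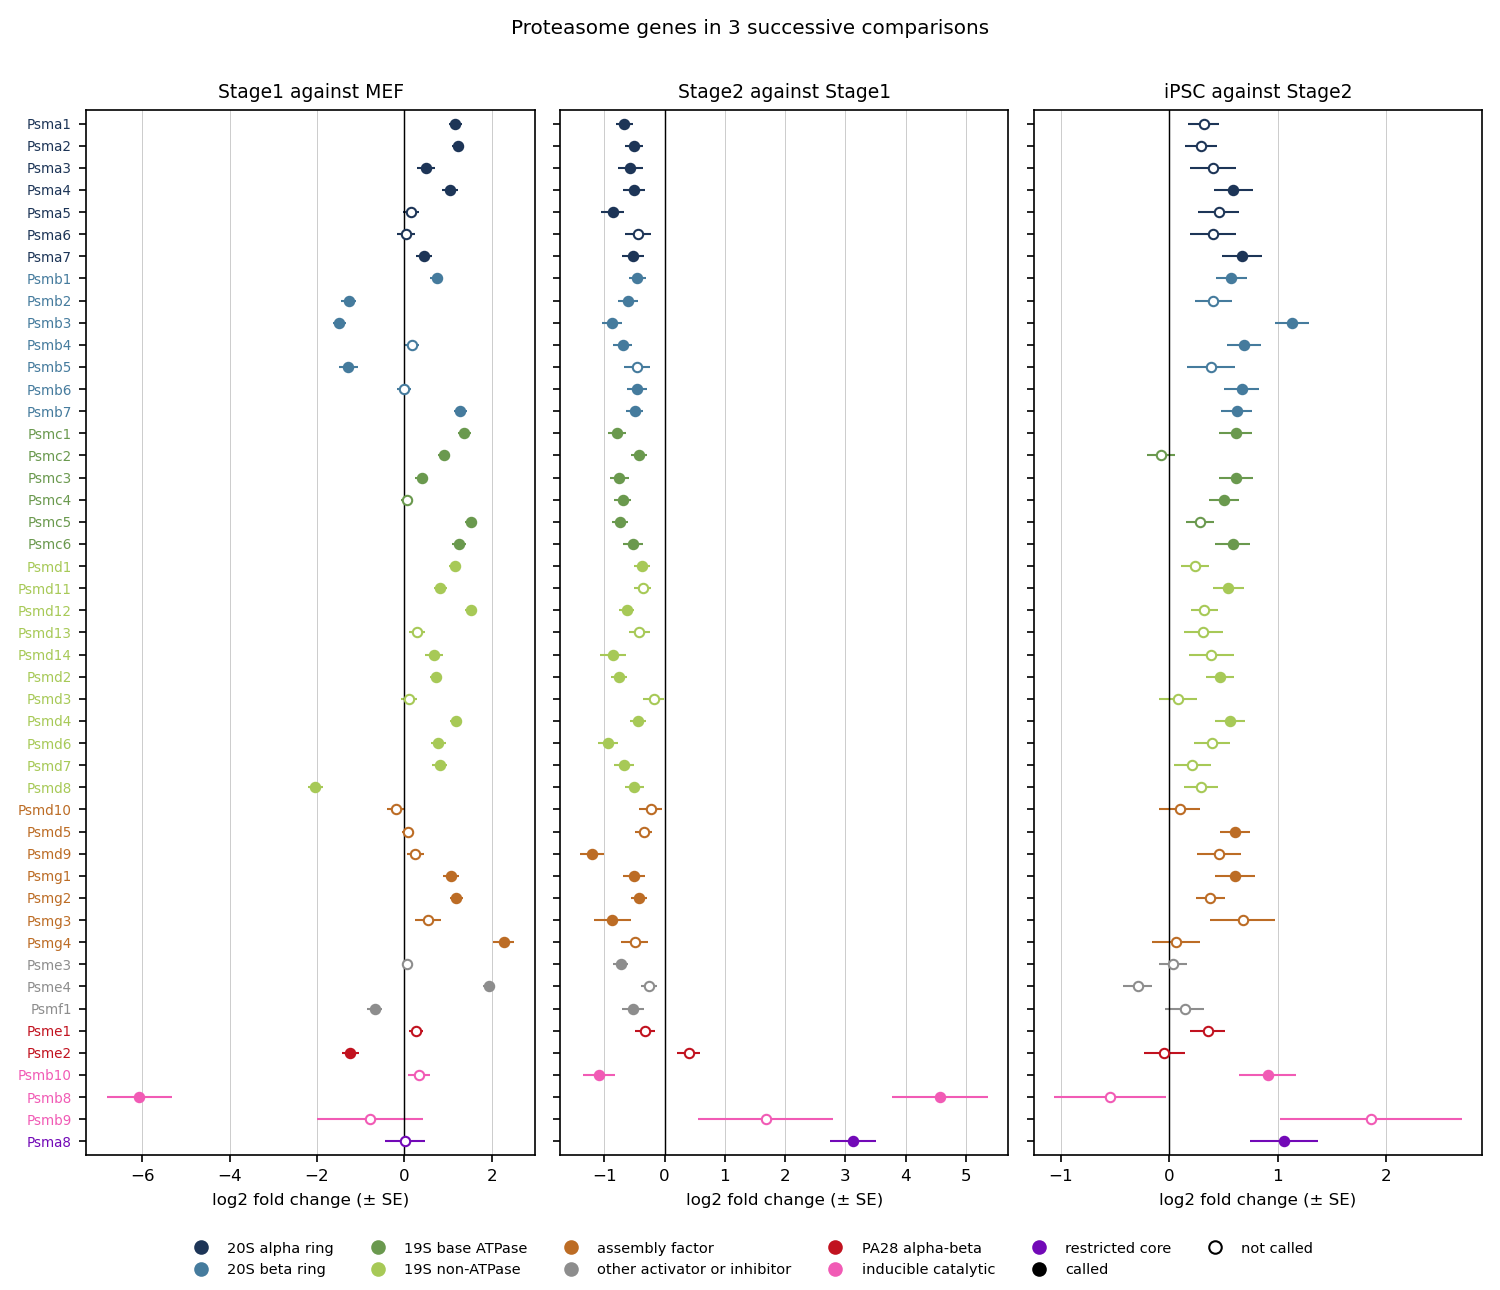
Log2 fold change (± SE) of the 47 tested proteasome genes in 3 successive comparisons, by ring or class. Filled points were called at an adjusted p below 0.05 and open points were not; in the middle panel the 31 standard subunits lie between -0.94 and -0.18, and Psmb8 and Psma8 lie at 4.57 and 3.13.

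From Stage2 to iPSC the subunits turned upward again. Of the 31 standard subunits, 14 were higher in iPSC, 0 were lower and 17 were not called, beside 9.21% of all tested genes called higher and 8.87% called lower (18.1% in either direction). At an unadjusted p below 0.05 by edgeR 20 were higher and 0 lower, and DESeq2 also called 14 higher and 0 lower. Of the 31, 30 had a positive value (Psmc2 was the exception at -0.07), with a median of 0.41 against 0.04 for all tested genes. The beta ring supplied 5 called subunits of 7, the alpha ring 2 of 7, the ATPases 4 of 6 and the non-ATPases 3 of 11. In 35 of the 47 tested members all iPSC libraries lay above all Stage2 libraries and in 1 (Psme4) below them, as in 24.9% and 21.3% of all tested genes.

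Psmb3 rose most among standard subunits, to 98.4, 84.8 and 68.4 CPM in iPSC, with a log2 fold change of 1.13 ± 0.159 (SE) and an adjusted p of 0.00022 by edgeR. Psmb6 rose to 178, 151 and 139 CPM and Psmb7 to 391, 377 and 376 CPM. Both catalytic subunits were called, at 0.67 and 0.62. Psmb5, at 18.3, 16.6 and 14.9 CPM in Stage2 and 23.8, 21.2 and 19.96 CPM in iPSC, did not overlap but was not called (0.38 ± 0.219 SE, adjusted p = 0.24 by edgeR).

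The number called here rested on single libraries. Of the 47 members 18 were higher, and 8, 7 and 8 were without Stage2 replicate 3, iPSC replicate 1 and iPSC replicate 2. The 31 standard subunits gave 7, 5 and 7 without the same libraries. With totals that include reads outside genes 31 members were called higher, and with a fit of only these 2 groups 31 were higher and 1 lower.

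The Stage2 dip is visible in the mean levels. Among the 31 standard subunits the highest group mean was in Stage1 for 19, in iPSC for 8, in MEF for 4 and in Stage2 for 0. The lowest was in Stage2 for 17 and in MEF for 14. Fibroblast markers also changed in these steps. At Stage2, 6 of 8 were higher than at Stage1, beside 20.6% of all tested genes. In iPSC, 7 of 8 were lower than at Stage2, beside 8.87% of all tested genes. The markers summed to 14.6 to 25.7 CPM at Stage1, 118 to 179.7 at Stage2 and 67.5 to 74.3 in iPSC. Their part in the Stage2 levels was not tested. The 4 with their highest mean in MEF were Psmb2, Psmb3, Psmb5 and Psmd8. Per kilobase of exon, with all annotated exons of a gene merged, the median level of the 31 was 52.4 CPM per kb in MEF, 85.5 at Stage1, 52.9 at Stage2 and 75.1 in iPSC. The merged length can exceed that of the transcript made, so different genes are compared only roughly. The highest value on this rough scale was that of Psmd8 in MEF (194 CPM per kb), Psmc1 at Stage1 (216), Psma6 at Stage2 (143) and Psma4 in iPSC (192).

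Summed over classes, reads of the 20S core made up 1911 ± 420.6 (SD, n = 3) per 1e+06 gene counts in MEF, 3000 ± 210 at Stage1, 2371 ± 45.5 at Stage2 and 3176 ± 112 in iPSC. The 19S particle gave 2526 ± 233, 4336 ± 255, 3277 ± 160 and 4067 ± 186 in the same order. On this scale no libraries of neighbouring groups overlapped in either sum. As TMM-scaled CPM, MEF and Stage1 overlapped in the 20S sum, with 2856 in MEF replicate 2 and 2749 in Stage1 replicate 1. The exact two-sided permutation test gave p = 0.1 for each of the 4 comparisons of both classes, the smallest that 3 libraries against 3 allow (0.118 after adjustment over 20 tests). Immunoproteasome and PA28 reads were 101 ± 9.21, 94.7 ± 13.7, 98.6 ± 11.4 and 112 ± 3.75 on the same scale. These last sums are carried mostly by Psme1 and Psme2. The order of MEF and Stage2 depended on scaling: as TMM-scaled CPM, the 20S sum was 2224 ± 573 in MEF and 2105 ± 39.5 at Stage2, and the 19S sum 2928 ± 337 and 2911 ± 179, so Stage2 had the lowest means.

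**Figure D3:**
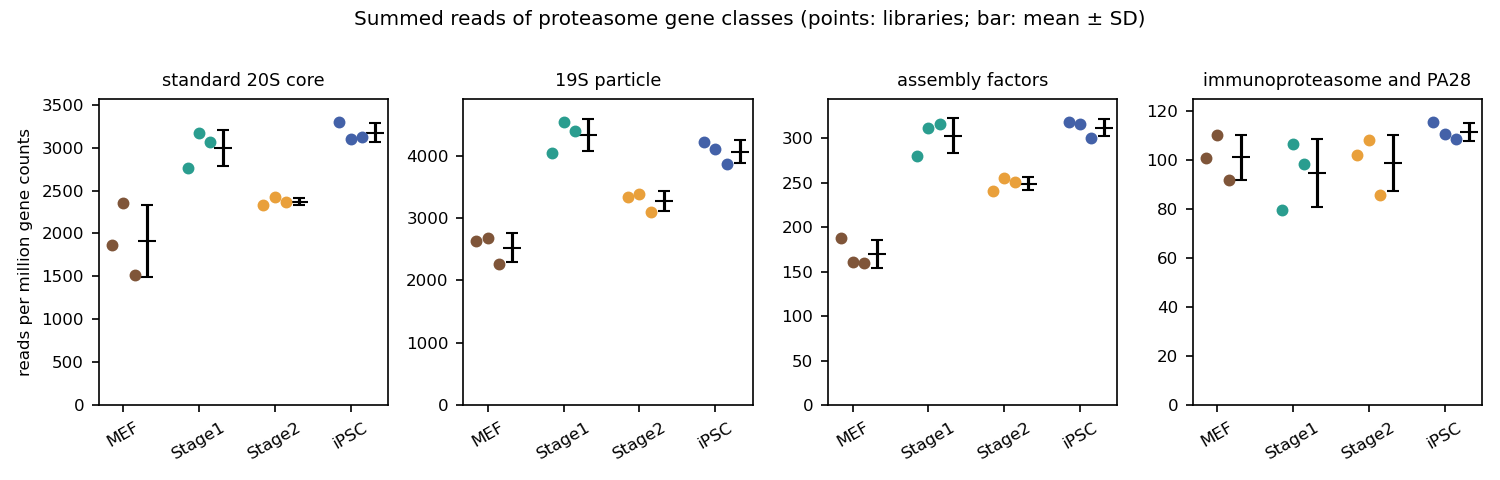
Summed reads of 4 classes of proteasome genes, per 1e+06 gene counts, in each library (points) with the group mean ± SD (bars), on axes that start at 0. The means of the 20S and 19S sums are lowest in MEF on this scale and lower at Stage2 than at Stage1 and in iPSC, while the summed immunoproteasome and PA28 genes overlap between MEF, Stage1 and Stage2.

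Between the end points, iPSC against MEF, 15 of the 31 standard subunits were higher and 4 lower, beside 44.9% and 35.8% of all tested genes (80.8% in either direction). The 4 were Psmb2 (-1.47), Psmb3 (-1.23), Psmb5 (-1.36) and Psmd8 (-2.24 ± 0.165 SE, adjusted p = 8.57e-10 by edgeR), also the 4 that fell at Stage1. Over all 47 tested members, 22 were higher, 9 lower and 16 not called. All iPSC libraries lay above all MEF libraries in 22 and below them in 9, as in 45% and 35.1% of all tested genes. In iPSC, Psmd8 lay at 149, 114 and 112 CPM and Psmb2 at 50.1, 48.8 and 42.4 CPM, below every MEF library. This comparison shares its MEF libraries with the first and its iPSC libraries with the third.

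GC content differed in its relation to the fold changes. Across the 47 tested members, Spearman's rho between the log2 fold change and the GC content of the exons was -0.37 for Stage1 against MEF and -0.33 for iPSC against MEF, and -0.06 and 0.13 for Stage2 against Stage1 and for the step to iPSC. Over all tested genes with a value the rho was -0.14 and -0.07 for the comparisons with MEF, and 0.12 and 0.15 for the later steps. These are descriptions across genes, which share libraries and are not replicates. The part of base composition in the falls of single subunits was not tested.

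The assembly factors help build the core and the base and leave the finished particle. At Stage1, 3 of 7 were higher and none lower, namely Psmg1, Psmg2 and Psmg4, chaperones of the alpha ring, a share near the 44.2% of all tested genes called higher. Psmg4 (chr13:34162964-34178173) went from 10.1, 16.8 and 8.49 CPM in MEF to 45.7, 61.3 and 66.0 CPM at Stage1. Its log2 fold change of 2.28 ± 0.239 (SE, adjusted p = 9.38e-08 by edgeR) was the largest rise of any member in that comparison. At Stage2, 4 of the 7 fell (Psmd9, Psmg1, Psmg2 and Psmg3), beside 19.8% of all tested genes, and Psmg4, at 41.2, 31.8 and 49.6 CPM, overlapped Stage1. In iPSC against Stage2, Psmd5 and Psmg1 rose. Psmd10, the base chaperone also known as gankyrin, was called in none of the 4 comparisons.

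The other regulators differed among themselves. Psme4 (chr11:30771726-30880361), which encodes the PA200 activator, lay at 219, 153 and 186 CPM in MEF and at 703, 728 and 703 CPM at Stage1. The groups were far apart, with a log2 fold change of 1.94 ± 0.138 (SE) and an adjusted p of 5.03e-10 by edgeR. It then lay at 565, 624 and 591 CPM at Stage2 and at 474, 512 and 471 CPM in iPSC, neither step being called. Psme3, the nuclear PA28 gamma, was not called from MEF to Stage1 (0.07) and fell at Stage2 by 0.73 on the log2 scale. Psmf1, the inhibitor PI31, fell at Stage1 (-0.68) and at Stage2 (-0.52).

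The immunoproteasome genes did not move as a class. Psmb8 (chr17:34197721-34201454), the inducible counterpart of Psmb5, had 27, 96 and 44 reads in the MEF libraries, 2, 0 and 0 at Stage1, 15, 18 and 26 at Stage2 and 9, 20 and 10 in iPSC. Stage1 was thus at or under the floor of 3 counts, and the other 3 groups were all above it. With the libraries of a group pooled, the MEF level was 79.3-fold that of Stage1 (95% exact interval for counting error, 21.6 to 660) and the Stage2 level 27.8-fold (7.35 to 235). Both steps were called by edgeR, with adjusted p-values of 7.27e-07 and 0.000232. In CPM it lay at 3.38, 6.41 and 2.65 in MEF, and at most at 1.68 in any Stage2 or iPSC library, so iPSC stayed below MEF (-2.04 ± 0.499 SE, adjusted p = 0.00117 by edgeR).

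Psmb9 (chr17:34181987-34187764), the inducible counterpart of Psmb6, was near the limit of detection outside iPSC. Its reads were 0, 0 and 10 in MEF, 2, 1 and 2 at Stage1, 2, 15 and 1 at Stage2 and 18, 19 and 25 in iPSC. Single libraries carried the MEF and Stage2 totals. It was called only in iPSC against MEF (2.75 ± 0.909 SE, adjusted p = 0.0103 by edgeR). Exons of Psmb9 overlap those of Tap1 on the opposite strand, and as the strand setting of the counting is not given in the sources used here, their reads may not be told apart.

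Psmb10, the inducible counterpart of Psmb7, lay at 5.005, 8.01 and 8.49 CPM in MEF, 8.43, 9.30 and 9.75 at Stage1, 3.42, 5.001 and 4.39 at Stage2 and 7.38, 8.95 and 7.82 in iPSC. The Stage2 libraries lay below all Stage1 and iPSC libraries. The fall was -1.09 ± 0.261 (SE, adjusted p = 0.0031 by edgeR), and the rise to iPSC was 0.91 ± 0.262 (SE, adjusted p = 0.0247). This rise was not called without Stage2 replicate 1 or 3 or without iPSC replicate 2 or 3 (adjusted p of 0.0933, 0.0633, 0.0939 and 0.0574 by edgeR). At Stage2 Psmb10 moved in the direction of the standard subunits, and Psmb8 in the other.

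The PA28 pair also parted. Psme2 lay at 44.4, 59.96 and 47.8 CPM in MEF and at 16.4, 26.3 and 22.4 CPM at Stage1, with no overlap, a log2 fold change of -1.23 ± 0.188 (SE) and an adjusted p of 1.04e-05 by edgeR. It lay at 29.3, 31.2 and 25.1 CPM at Stage2 and at 29.9, 28.4 and 24.7 CPM in iPSC. Its partner Psme1 lay at 59.8, 59.6 and 45.8 CPM in MEF, 54.1, 75.4 and 69.1 at Stage1, 57.8, 57.2 and 43.8 at Stage2 and 69.6, 68.0 and 65.8 in iPSC. Psme1 was called in none of the 4 comparisons. Exons of Psme1 overlap Emc9 on the opposite strand.

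**Figure D4:**
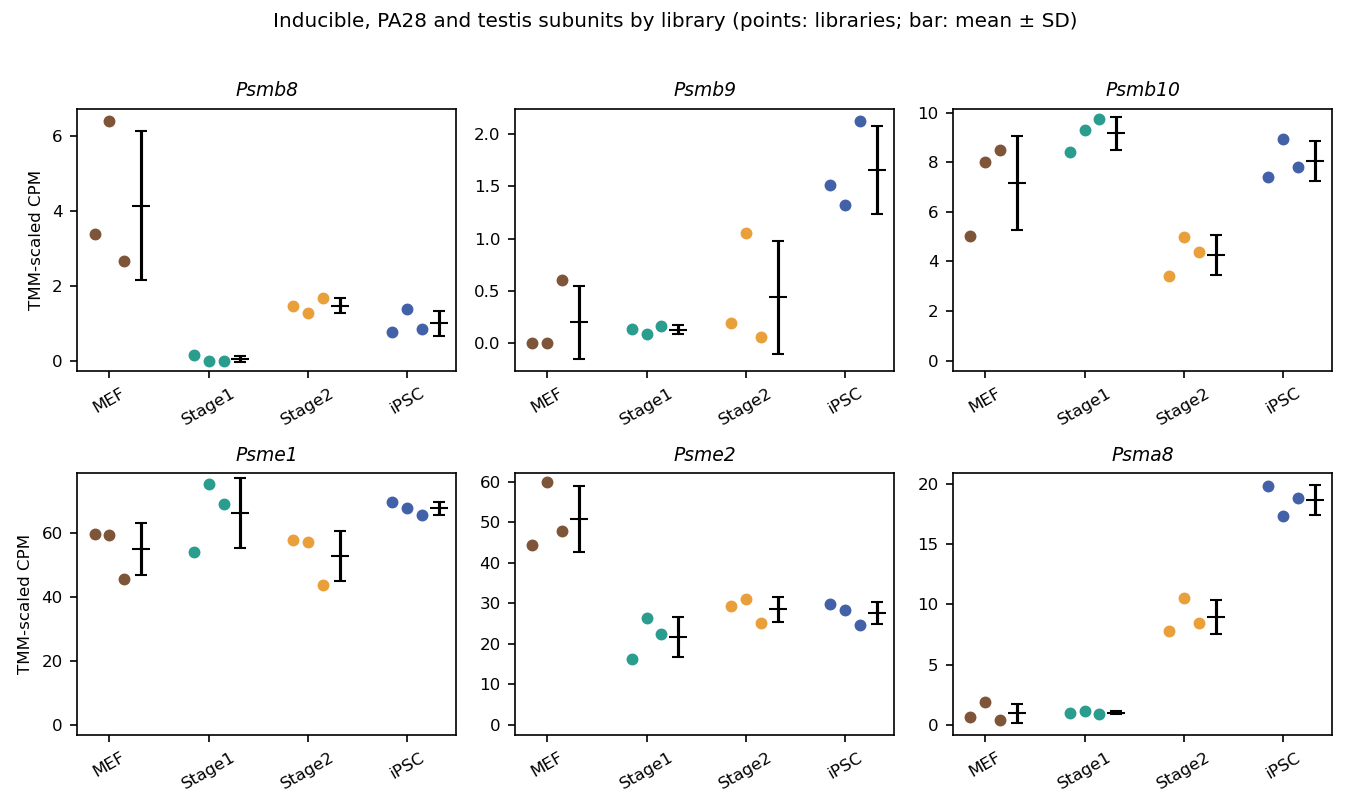
TMM-scaled CPM of Psmb8, Psmb9, Psmb10, Psme1, Psme2 and Psma8 in each library (points) with the group mean ± SD (bars). Psmb8 is at or near 0 in the Stage1 libraries, Psme2 is highest in MEF, and Psma8 lies at 7.81 CPM or more in the Stage2 and iPSC libraries and at 1.87 CPM or less in the others.

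Within a library, the ratio of an inducible subunit to the standard one it replaces does not depend on scaling. The log2 ratio of Psmb8 to Psmb5 reads (0.5 added to each) was -3.76 ± 0.666 (SD, n = 3) in MEF, -8.37 ± 1.09 at Stage1, -3.47 ± 0.296 at Stage2 and -4.43 ± 0.506 in iPSC. The Stage1 libraries did not overlap those of MEF or Stage2, and the exact permutation test gave p = 0.1, the smallest possible here (0.171 after adjustment over 12 tests). That of Psmb10 to Psmb7 went from -4.34 ± 0.563 in MEF to -5.24 ± 0.113, -5.86 ± 0.386 and -5.56 ± 0.164. Standard reads thus outnumbered inducible reads in every library for all 3 pairs. Exon lengths differ within a pair (3381 bases for Psmb8 and 899 for Psmb5), so only changes of a ratio between groups are read. Stage1 replicates 2 and 3 had 0 Psmb8 reads, so their Psmb8 to Psmb5 ratios depend on the 0.5 reads added. For Psmb9 to Psmb6 the direction from MEF to Stage1 depended on the count added and on MEF replicate 2.

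**Figure D5:**
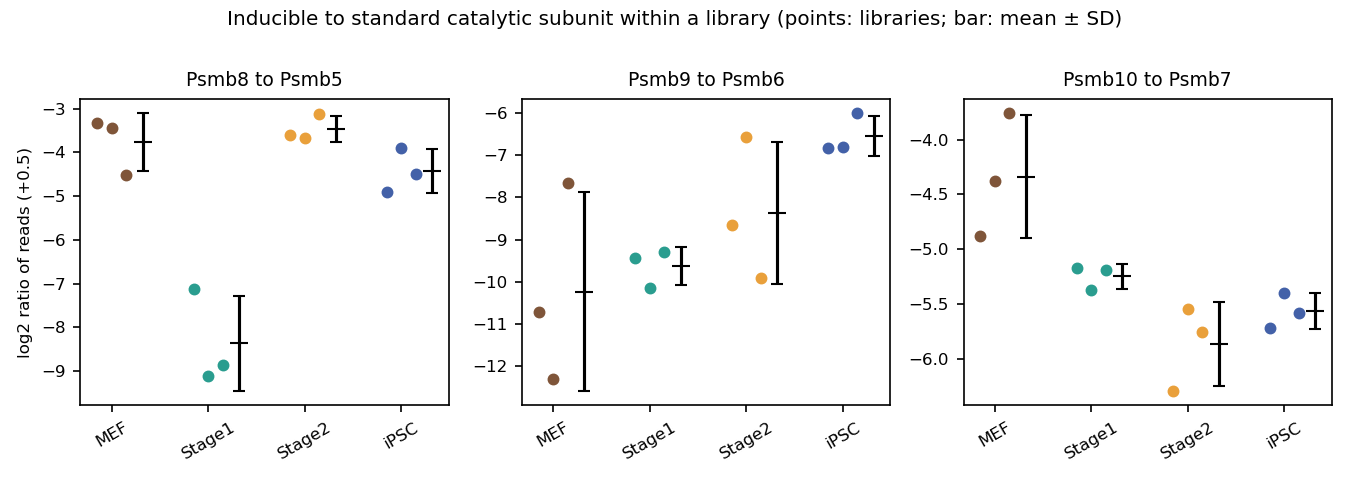
Log2 ratio of reads of an inducible catalytic subunit to its standard counterpart within each library (points, 0.5 reads added) with the group mean ± SD (bars). All points are below 0; the 3 Stage1 libraries are lowest for Psmb8 to Psmb5, at -7.12, -9.12 and -8.87.

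MEF libraries also held more macrophage and blood marker RNA. The 11 detected markers summed to 171 to 197.4 CPM in MEF, 28.1 to 37.1 at Stage1, 39.8 to 50.8 at Stage2 and 24.7 to 32.7 in iPSC. Of the 11, 9 were lower at Stage1, beside 36.1% of all tested genes. Not all were highest in MEF: Laptm5 lay at 15.3 ± 5.56 CPM (SD, n = 3) in MEF and at 21.3 ± 1.96 at Stage1. Cd68 lay at 8.15 ± 2.67 CPM in MEF, 7.54 ± 3.29 at Stage1 and 25.0 ± 2.28 at Stage2. C1qa had no read at Stage2. The part of this marker RNA in the levels of Psmb8 and Psme2 was not tested.

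Psma8, the alternative alpha4 subunit known from testis, appeared late. Its reads were 5, 28 and 7 in MEF, 14, 13 and 11 at Stage1, 80, 150 and 131 at Stage2 and 236, 250 and 222 in iPSC. The rise at Stage2 was 3.13 ± 0.382 (SE) on the log2 scale, with an adjusted p of 6.91e-06 by edgeR. Psma8 and Psmb8 were the 2 members that rose in that step. The further rise to iPSC was 1.06 ± 0.310 (SE, adjusted p = 0.0267 by edgeR), and that call was lost without Stage2 replicate 1 or 3 or any 1 of the iPSC replicates (adjusted p of 0.0668 to 0.0946). Psma8 reads made up 0.349% to 0.863% of Psma7 plus Psma8 reads in MEF, 0.435% to 0.534% at Stage1, 4.71% to 6.94% at Stage2 and 7.03% to 8.39% in iPSC, so the standard Psma7 supplied most alpha4 reads in every library.

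Psmb11, the thymus form of the beta5 subunit, had 0 reads in all MEF libraries and 12, 3 and 2 at Stage1, 3, 5 and 7 at Stage2 and 9, 3 and 5 in iPSC. Against a floor of 3 counts over the MEF group, its 17 pooled reads at Stage1 came to 5.97-fold and its 17 in iPSC to 5.88-fold. Counting error in the 17 reads is not included, so these are not lower bounds. Psmb11 was too low for the fit, and most of these counts lie near the floor.

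Genes that work with the proteasome moved in part in the same directions. Of 11 partners, 8 were higher at Stage1 and 1 lower, and 5 were lower and 1 higher at Stage2. Of all tested genes, 44.2% were higher and 36.1% lower at Stage1, and 19.8% lower and 20.6% higher at Stage2. Uchl5, a deubiquitinase of the 19S particle, rose from 18.4 ± 2.55 CPM (SD, n = 3) in MEF to 137 ± 16.8 at Stage1 and fell to 74.7 ± 6.17 at Stage2. The core maturation factor Pomp rose by 0.59 and fell by 0.57 on the log2 scale, and AI314180, which encodes the proteasome adaptor Ecm29, rose by 0.57 and fell by 1.31. In iPSC against Stage2, edgeR called 0 of the 11 (3 were higher at an unadjusted p below 0.05), and DESeq2 called 0. The 11 tested ubiquitin genes, activating enzymes and shuttles had 2 higher and 5 lower at Stage1, against the same shares of all tested genes. Neither later step had a call by edgeR: at an unadjusted p below 0.05, 2 were lower at Stage2, and 2 were higher and 1 lower in iPSC, while DESeq2 called 0 and then 1.

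Transcription factors of proteasome genes did not share one course. Nfe2l1, which drives proteasome gene transcription when proteasome function is low, lay at 249.4 ± 35.6 CPM (SD, n = 3) in MEF, 114 ± 6.90 at Stage1, 181 ± 14.3 at Stage2 and 125 ± 8.16 in iPSC. It fell, rose and fell (-1.13, 0.67 and -0.54, each called), opposite in sign at each step to the median of the 31 standard subunits. A link between these courses was not tested. Its relative Nfe2l2 was called in none of the comparisons. Nfe2l3 rose at Stage1 from 0.449 ± 0.339 to 4.06 ± 0.994 CPM, and Ddi2, the protease that processes Nfe2l1, rose by 1.81 on the log2 scale. Ngly1, Sel1l and Syvn1, which act on Nfe2l1 at the endoplasmic reticulum, fell at Stage1 (-1.49, -1.22 and -1.34). Vcp, of the same list, rose at Stage1 (0.44). Of the 9 genes in this list, 3 were higher and 4 lower at Stage1, beside 44.2% and 36.1% of all tested genes. At Stage2, Nfe2l3 rose again (1.06) and Ddi2 and Vcp fell (-0.47 and -0.37), so 2 of the 9 were higher and 2 lower. Of all tested genes, 20.6% were higher and 19.8% lower there. In iPSC against Stage2, Nfe2l1 and Nfe2l3 (-1.135) were lower and the others were not called, beside 8.87% of all tested genes called lower.

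Of 13 genes that act in immunoproteasome induction, 8 fell and 2 rose at Stage1, and 7 rose and 1 fell at Stage2. Beside these stand 36.1% lower and 44.2% higher of all tested genes at Stage1, and 20.6% higher and 19.8% lower at Stage2. The interferon-gamma receptor genes Ifngr1 and Ifngr2 fell at Stage1 (log2 fold changes of -3.69 and -5.89) and were not called at the later steps. Irf1, a transcription factor of the inducible subunits, lay at 12.2 ± 1.30 CPM (SD, n = 3) in MEF, 15.3 ± 2.32 at Stage1, 48.9 ± 4.89 at Stage2 and 32.2 ± 5.03 in iPSC. Irf1 rose at Stage2 (1.68, adjusted p = 1.86e-06 by edgeR). In that step Psmb8 rose, Psmb10 fell, and Psmb9, Psme1 and Psme2 were not called. The mean of Irf1 was lowest in MEF, where that of Psmb8 was highest. A link between Irf1 and these genes was not tested. Of 9 genes of class I peptide loading, 7 fell and 1 rose at Stage1, where 36.1% and 44.2% of all tested genes did. At Stage2 against Stage1, 3 of the 9 were higher and 2 lower, beside 20.6% and 19.8% of all tested genes, and their median log2 fold change was 0.55. B2m, the light chain of class I molecules, went from 477 ± 41.5 CPM in MEF to 22.3 ± 6.89 at Stage1. It lay at 8.603 ± 0.123 at Stage2, falling where Psmb8 and the median of its list rose.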

How the data were processed

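RNA was extracted with the miRNeasy Mini Kit, per the labels' protocols, and sequenced from 12 mouse libraries. The deposited values are raw counts of reads per gene symbol, whole numbers without normalization. Per the submitters' processing notes, mm10, TopHat2 2.0.9, Bowtie2 2.2.6, SAMtools 0.1.19, HTSeq 0.5.4p3 and DESeq2 1.12.4 were used. The version of the annotation and the strand setting are not given in the sources used here. In GENCODE M21, exons of Psma4, Psmb7, Psmb9, Psmc3, Psmd1, Psmd13 and Psme1 overlap those of another counted gene on the opposite strand. Those of Psmb5 overlap the counted gene Mir686 on the same strand, so reads there may not be told apart under any strand setting. HTSeq's summary lines stayed out of library sizes and tests.

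A single fit of all groups was made with edgeR 4.0.16 (R 4.3.3, with limma 3.58.1 and statmod 1.5.0): filterByExpr by group (14770 genes), TMM scaling, a robust quasi-likelihood fit and Benjamini-Hochberg adjustment over all tested genes, with calls at 0.05. Levels are TMM-scaled CPM, with 3 counts worth 0.181 to 0.375 CPM by library. Log2 fold changes use the default prior count, and their SE is the size of the log2 value divided by the root of F. Ratios and summed shares were compared by exact two-sided permutation tests. Intervals cover counting error only, and folds against a floor carry no interval. The fit was also run on simulated data in which a small set of genes was changed. That does not test the scaling in the comparisons with MEF, where most genes were called. Positions and exon overlaps come from GENCODE M21 and promoter windows from RefSeq, both on GRCm38.

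Values in every library are given for the immunoproteasome and PA28 genes, the standard catalytic subunits and the restricted subunits. The same holds for the 3 called members with the largest change per comparison and direction. Class ends and up to 6 genes per pathway list may also be named, with more for the transcription of proteasome genes. The members, classes and gene lists were chosen with earlier results of these data known. Alternatives were other scalings, filters, DESeq2 1.42.0, fits of fewer groups, the replicate number as a block, the stage characteristic as the group and the removal of 1 library at a time. A GC correction and totals that include reads outside genes were added after seeing the data.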

Additional observations from a re-analysis of the deposited data

How the results depend on the processing

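With group names from the characteristics in place of the titles, the same 4 contrasts compared other libraries: members called higher and lower were 2 and 33 in the contrast of Stage1 with MEF, 18 and 0 in that of Stage2 with Stage1, 9 and 22 in that of iPSC with Stage2, and 7 and 24 in that of iPSC with MEF. The markers go against these names, since the libraries then named iPSC held 24770 to 29970 CPM of fibroblast markers. With totals that include reads outside genes, 15 were higher and 12 lower at Stage1 against MEF and 31 higher in iPSC against Stage2. At Stage2 against Stage1, 16 were lower with library totals in place of TMM and 21 with the GC correction. A fit of only the groups compared gave 31 higher and 1 lower for iPSC against Stage2. The cause of these changes was not tested.

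Leaving out 1 library at a time gave 22 to 29 higher and 7 to 8 lower at Stage1 against MEF, 2 higher each time and 20 (without Stage2 replicate 3) to 33 lower at Stage2 against Stage1, 7 to 16 higher and 0 lower for iPSC against Stage2, and 21 to 29 higher and 8 to 11 lower for iPSC against MEF. The log2 ratio of Psmb9 to Psmb6 at Stage1 against MEF, 0.61, became -0.006 with 2 reads added and ranged from -0.43 (without MEF replicate 2) to 1.88. The summed share of immunoproteasome and PA28 genes, as a log2 ratio, ranged from -0.19 to 0.017 at Stage1 against MEF and from -0.053 to 0.15 at Stage2 against Stage1, where it was -0.012 without Stage2 replicate 2. For iPSC against MEF it was -0.41 without the most abundant member, against 0.14. The remaining ratios and sums kept their direction in these alternatives. Psmb6 at Stage2 against Stage1 lost its call under RLE scaling, library totals, no filter, DESeq2, the GC correction, totals with reads outside genes and without any 1 Stage1 or Stage2 library other than Stage1 replicate 1 (adjusted p of 0.0511 to 0.208 by edgeR or DESeq2). Psmb7 lost it there with library totals, the GC correction and without Stage1 replicate 2 (0.106, 0.0655 and 0.0644 by edgeR), and Psmb6 in iPSC against Stage2 without iPSC replicate 1 (0.0506).

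The labels do not say that replicate numbers mark a shared source, and not every same-numbered pair of libraries deviated together: correlations ran from -0.07 to 0.20, with 3 of 18 over 0.1, against 0 of 36 pairs with different numbers. As a hint from the data, 8 of 12 libraries correlated best with their own number. With the replicate block, members called higher and lower were 25 and 7, 2 and 33, 18 and 0, and 22 and 9 in the order above. Depth limits Psmb8, Psmb9 and Psmb11, where 3 counts were worth up to 0.375 CPM.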
